A study of Mus musculus with 16 samples.

Results

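Bleomycin, an antibiotic that breaks DNA strands, is instilled into the airways of mice as a model of lung injury and scarring. Its effect was measured here in whole lungs that had also received LNA-control, a locked nucleic acid oligonucleotide that served as the control for an inhibitor of miR-199a-5p. Arrays were chosen by their titles: 5 arrays of bleomycin with LNA-control were set against 3 arrays of PBS with LNA-control, 8 of the 16 arrays in the series. The other 8 arrays, 5 with bleomycin and 3 with PBS, came from lungs given LNA-miR-199a-5p in place of LNA-control. All mice were C57BL/6 and 9 to 12 weeks old. Both groups received 5 mg/kg of LNA-control through the trachea on 3 occasions, 4 and 2 days ahead of the challenge and 4 days after it, so neither group shows a lung without an oligonucleotide. The challenge was 1 unit/kg of bleomycin, or PBS alone, by the same route. The labels give no day of collection and do not say that each replicate was a separate animal. The p-values therefore rest on the spread between samples within the groups of all 16 arrays, which may be technical in part. Cy3-labelled RNA (0.2 ug per sample) was read on 1-colour Agilent arrays, and RNA integrity averaged 8.2 in the bleomycin group and 8.33 in the PBS group.

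Bleomycin kills alveolar epithelial and endothelial cells, and the lung answers with recruited monocytes that become macrophages, with division of surviving cells and with fibroblasts that lay down matrix. Macrophages take up dead cells and surfactant, digest them in lysosomes, and send signals to fibroblasts, vessels and epithelium. The gene groups below follow that order: uptake and digestion, signals to leukocytes, matrix and growth signals to the stroma, vessels, epithelium, and lymphocytes.

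Values are log2 intensities, so a difference of 1 is a doubling of signal. Each difference is the mean of 5 bleomycin arrays minus that of 3 PBS arrays, ± limma's standard error. The spread behind that error and the p-values was estimated from all 16 arrays in 4 groups and moderated across genes. It therefore includes the arrays with LNA-miR-199a-5p. A gene was called when limma's p, adjusted by the Benjamini-Hochberg method over all 20863 genes, was under 0.05. By this rule 3651 genes (17.5%) were called, 2003 higher (9.6%) and 1648 lower (7.9%) after bleomycin. When each array was first centred on its median, 3873 genes were called, 1628 higher and 2245 lower, so the share of calls that were higher went from 54.9% to 42.0%. At least a 2-fold change was seen for 302 genes that rose and for 69 that fell. Without PBS replicate 3 the count of called genes was 2292, 1303 higher and 989 lower. The bleomycin arrays were not equally far from PBS: replicate 3 was the least changed for 908 of the 2003 higher genes (45.3%) and for 949 of the 1648 lower genes (57.6%), and replicate 5 was the most changed for 766 of the higher genes (38.2%).

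The arrays carried lung markers at high levels: the surfactant gene Sftpc read 18.32 on all 8, Scgb1a1 of club cells lay between 18.00 and 18.15, and Ager of type 1 cells between 13.88 and 14.45. Cdh5, the cadherin of endothelium, read 13.84 to 14.09 on the PBS arrays and 13.38 to 13.53 on the bleomycin arrays. Bleomycin replicates 1 and 4 stood apart by genes of developing T cells, with Rag1 at 10.03 and 10.88 against 5.43 to 6.00 on the other 6 arrays, and results that rest on them are given with and without both. Without these 2 arrays 2258 genes were called, 1306 higher and 952 lower. PBS replicate 3 stood apart by Ucp1 of brown fat, at 5.57 against 11.37 and 10.55 on the other PBS arrays, and by Krt13 of squamous epithelium, at 11.38 against 13.53 and 12.99. The part of thymus, fat or airway tissue in any result was not tested.

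The largest rises and falls were ranked among called genes whose groups did not overlap and whose mean over the 8 arrays was above the median level of 8.45. Of the 25 largest rises 9 had a PBS mean under that level, so they passed it through their bleomycin arrays, and 4 of the 25 largest falls passed it through their PBS arrays. The test itself used all genes. Groups did not overlap for 5277 of the 20863 genes (25.3%), and for the ranked genes this was a condition. Thbs4, a thrombospondin of the extracellular matrix, read 6.66, 6.57 and 6.10 on the PBS arrays and 10.13, 9.62, 9.53, 9.75 and 10.40 on the bleomycin arrays. It rose by 3.44 ± 0.43 (limma adjusted p = 4.5e-05) with no overlap, and its PBS arrays lay near the median of all spots, 6.15, so the size may be a lower bound. The same holds for other genes below that read about 6 on the PBS arrays, since no background call was used for single spots. Slc26a4, the anion exchanger pendrin, read 9.11, 9.09 and 8.75 on the PBS arrays and 12.19, 11.90, 11.50, 11.95 and 12.29 on the bleomycin arrays. It rose by 2.98 ± 0.45 (limma adjusted p = 0.000223), and Fxyd4, a small partner of the sodium pump, rose by 2.80 ± 0.31 (limma adjusted p = 1.28e-05). Saa3, an inducible serum amyloid A, read 8.25, 7.94 and 7.59 on the PBS arrays and 11.34, 10.45, 9.11, 11.54 and 11.37 on the bleomycin arrays, so the groups did not overlap but bleomycin replicate 3 sat well below the other 4. Its rise was 2.84 ± 0.54 (limma adjusted p = 0.00142). Other large rises were those of Lama1, the laminin alpha 1 chain (2.15 ± 0.29), Gp2, the receptor for bacteria on M cells (2.03 ± 0.15), Phgr1 (2.16 ± 0.13), AA467197 (2.09 ± 0.48) and Wfdc17, a whey acidic protein family member that activated macrophages and microglia make (2.09 ± 0.17). Chl1, a neural adhesion molecule, rose by 2.06 ± 0.55, a call lost without PBS replicate 3 (limma adjusted p = 0.1) or without both Rag1-high arrays (limma adjusted p = 0.0778).

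Fabp1, the liver-type fatty acid binding protein, had the largest fall by the same ranking. It read 11.39, 11.49 and 11.59 on the PBS arrays and 8.32, 8.44, 9.31, 8.49 and 8.30 on the bleomycin arrays, and it fell by 2.91 ± 0.19 (7.54-fold, limma adjusted p = 6.17e-08). Bex2 read 12.67, 12.70 and 12.79 on the PBS arrays and 10.25, 10.95, 11.21, 10.15 and 10.17 on the bleomycin arrays, and it fell by 2.18 ± 0.22 (limma adjusted p = 6.77e-06). In both genes the PBS arrays lay close together, and bleomycin replicates 2 and 3 had lost less signal than replicates 1, 4 and 5 in Bex2 and replicate 3 less than the rest in Fabp1. Fabp12, another fatty acid binding protein (-1.46 ± 0.20), Nrn1, or neuritin (-1.51 ± 0.20), Krt79 (-1.33 ± 0.11), the transcription factor Sox11 (-1.24 ± 0.17) and the apoptosis inhibitor Faim2 (-1.31 ± 0.21) also fell. Among the largest falls, calls of Treml1, Cyp26b1 and Il1b were lost when PBS replicate 1 was left out (limma adjusted p = 0.0512, 0.115 and 0.0822). The call of Cyp26b1 was also lost without PBS replicate 2 (limma adjusted p = 0.077) or bleomycin replicate 5 (limma adjusted p = 0.0507). Those of Treml1 and Il1b were also lost when only the 8 arrays entered the fit (limma adjusted p = 0.0509 and 0.0524), and on bleomycin replicate 2 Treml1 read 7.20 against 10.48 to 10.74 on the others.

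**Figure D1:**
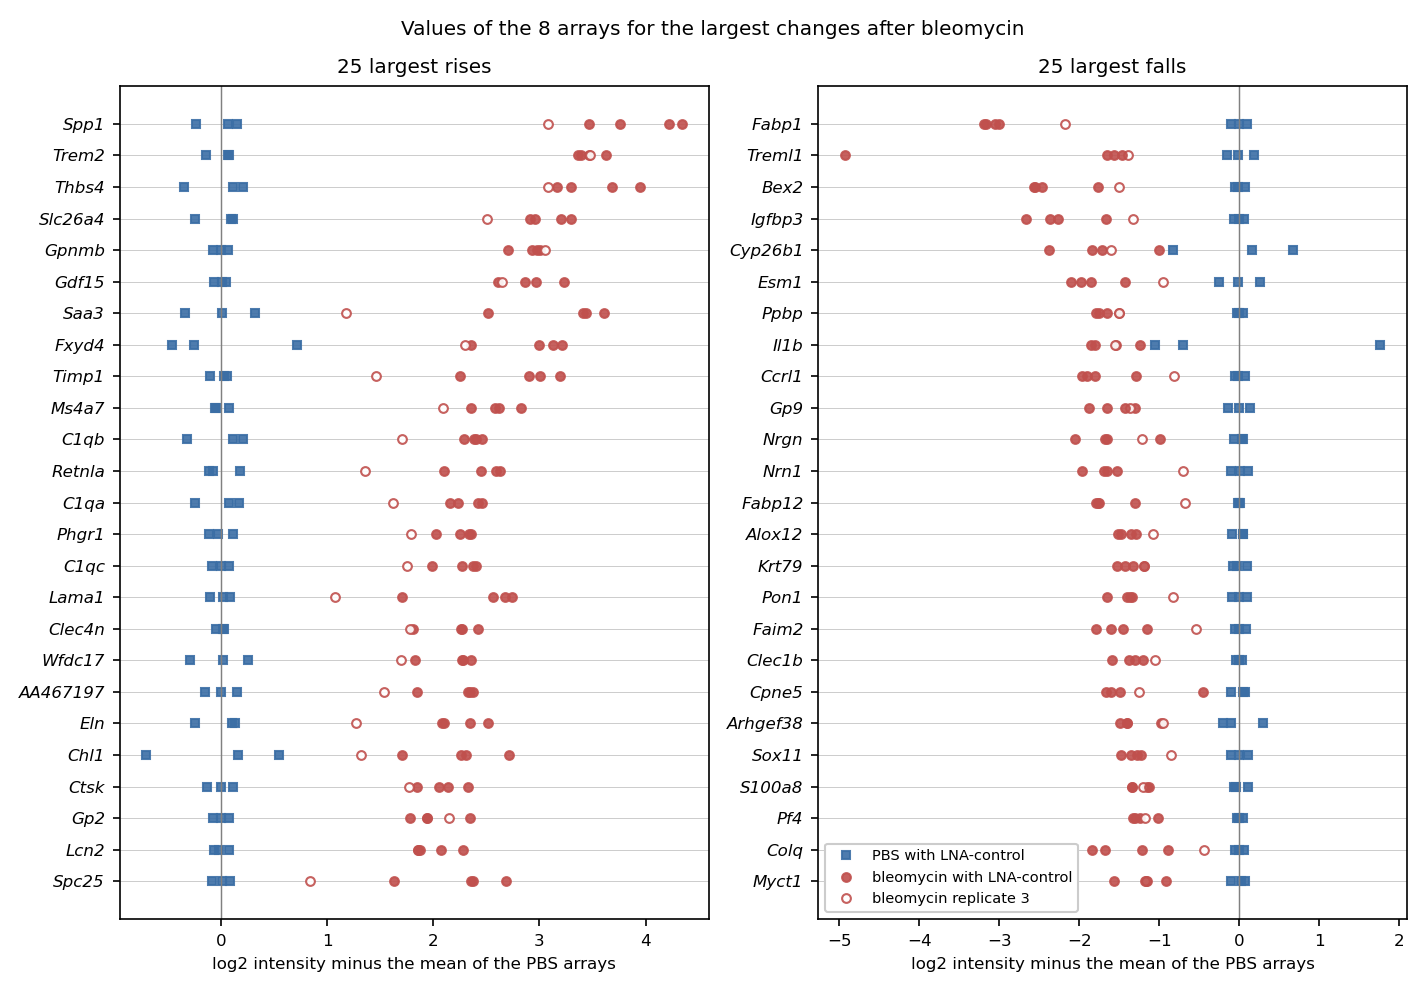
Log2 intensity minus the mean of the 3 PBS arrays (x axis) for the 25 called genes above the median level and without overlap that had the largest rises (left) and the 25 with the largest falls (right), 1 point per array. Blue squares are PBS arrays, red circles bleomycin arrays, and the open circle is bleomycin replicate 3, which was the least changed array for 21 of the 25 rises and 16 of the 25 falls.

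In 48 gene lists with 1417 distinct measured genes, members were counted beside the shares for all genes. The lists that stood highest in rises were those of lysosomes (33 of 50 members), MHC class II presentation (9 of 17), acute-phase genes (11 of 21), DNA replication (28 of 54) and matricellular proteins (23 of 46). Those with the most falls were capillary endothelium (23 of 36), vasoactive signalling (16 of 36) and drug and aldehyde metabolism (16 of 42). The capillary endothelium list also holds genes of larger vessels. Some shares of falls lay near the 7.9% of all genes. Among them were 10% in the osteoclast and coagulation lists, 9.68% for tight junctions, 9.52% for lipids and for acute-phase genes, and 9.38% for prostanoids. Others were 7.41% for helper and regulatory T cells, 6.52% for matricellular proteins and 6.06% for the amino acid stress response. In whole lung RNA, fewer cells of a type and less RNA per cell cannot be told apart.

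**Figure D2:**
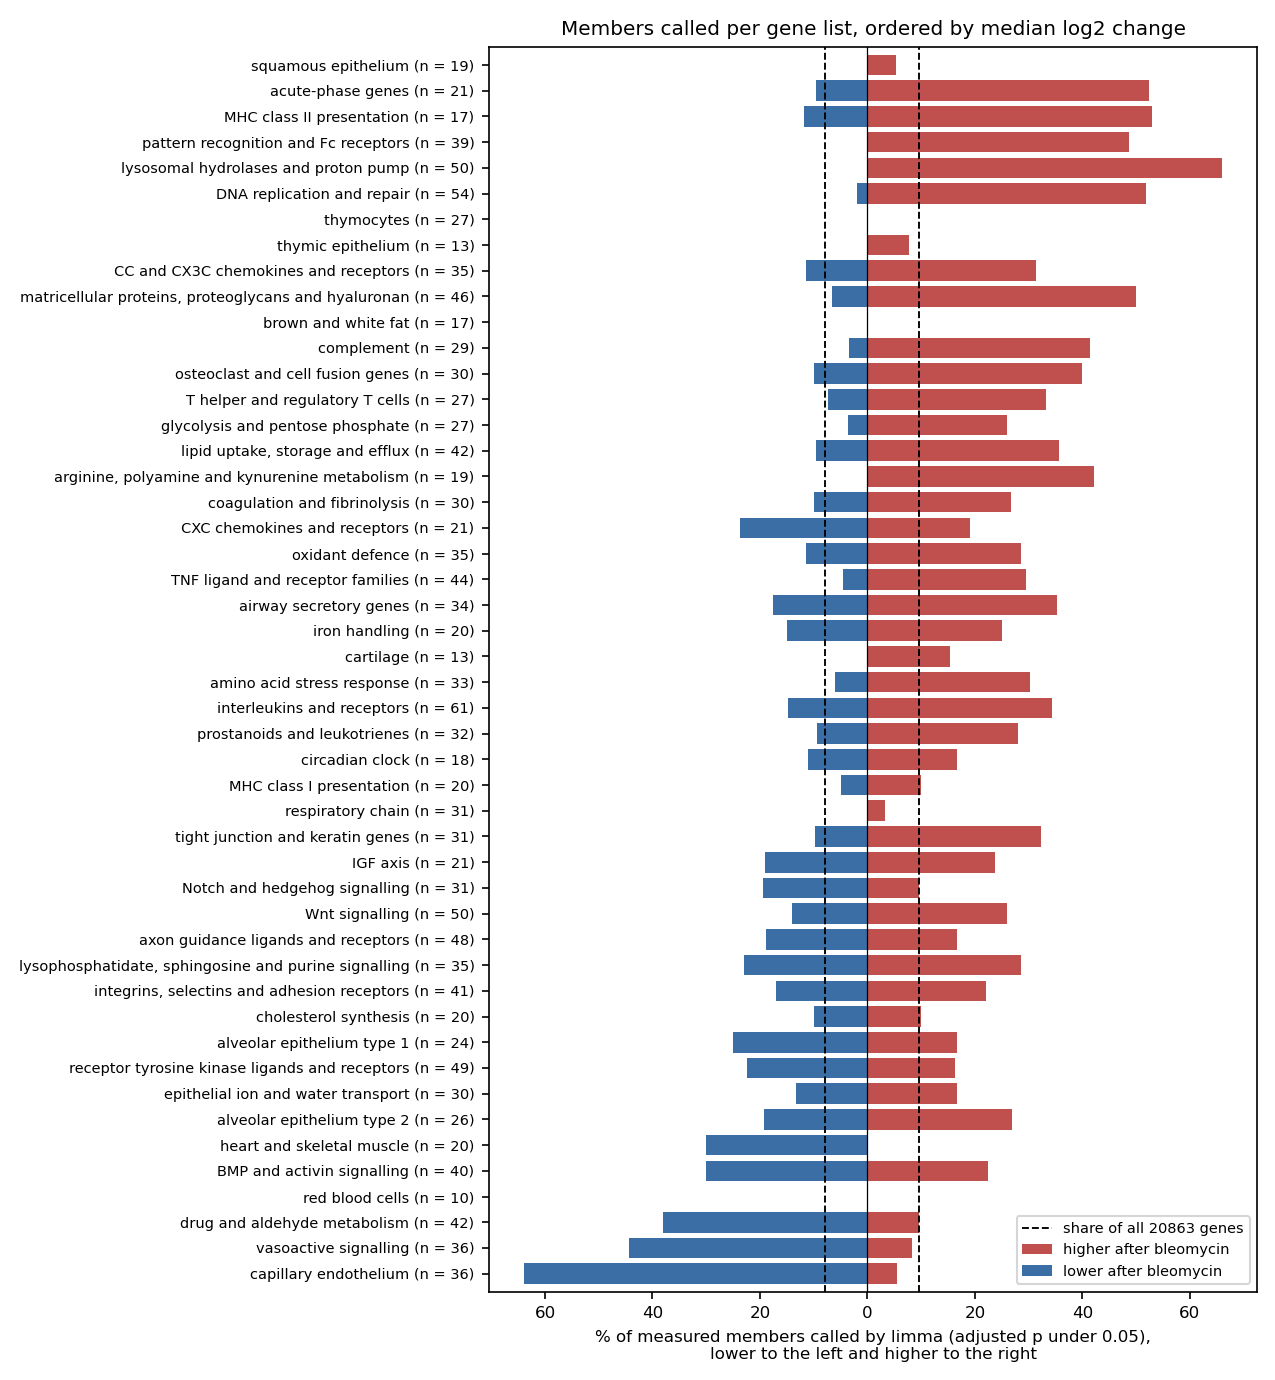
Share of the measured members of each of 48 gene lists that were called lower (blue, to the left) or higher (red, to the right) after bleomycin, in % of the members measured, with lists ordered by their median log2 change. Dashed lines mark the shares over all 20863 genes, 7.9% lower and 9.6% higher; the lysosomal list reached 66% higher and the capillary list 63.9% lower.

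The 3 chains of C1q led the rises in the complement list, followed by the receptor C3ar1. Of 29 measured complement genes 12 rose and 1 fell, with a median difference of 0.28 against 0.0035 over all genes, and the 12 rises stayed at 11 or 12 whichever array was left out. C1qa, C1qb and C1qc encode the 3 chains of C1q, which binds immune complexes and dying cells. C1qb read 9.85, 9.76 and 9.32 on the PBS arrays and 12.02, 12.04, 11.35, 11.93 and 12.10 on the bleomycin arrays, and every bleomycin array was above every PBS array. The chains rose by 2.18 ± 0.17, 2.24 ± 0.17 and 2.15 ± 0.15 (limma adjusted p = 5.34e-07, 3.48e-07 and 1.08e-07). C3ar1, the receptor for the C3a fragment, rose by 1.69 ± 0.11 (limma adjusted p = 7.17e-08), C4b by 0.80 ± 0.10, Cfi, the protease that cleaves C3b, by 1.25 ± 0.17, and Itgax, the alpha chain of complement receptor 4, by 1.24 ± 0.12. C5ar2, the second receptor for C5a, was the member that fell, by 0.96 ± 0.10 (limma adjusted p = 5.93e-06), and without bleomycin replicate 2 a further complement gene was called lower. C3 itself differed by 0.17 ± 0.11, Cfd by 0.28 ± 0.22 and Serping1, the C1 inhibitor, by -0.01 ± 0.10, and none of these passed the test.

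Receptors that recognise microbes, dead cells and antibody rose in 19 of 39 members and fell in none (0 lower at an unadjusted p under 0.05), with a median of 0.45. Clec4n, or dectin-2, read 11.46, 11.53 and 11.52 on the PBS arrays and 13.92, 13.31, 13.28, 13.76 and 13.77 on the bleomycin arrays. It rose by 2.11 ± 0.13 (limma adjusted p = 2.63e-08) with no overlap between groups. The scavenger receptor Msr1 rose by 2.09 ± 0.18, the inhibitory receptor Lilrb4a by 1.54 ± 0.10, the antibody receptor Fcgr3 by 1.36 ± 0.11, and Clec7a, or dectin-1, which binds fungal glucan, by 1.35 ± 0.11. Smaller rises were those of Clec4d (1.06 ± 0.09), the sialic acid receptor Siglec1 (0.97 ± 0.11) and the lipoprotein receptor Tlr2 (0.82 ± 0.10). Marco, a scavenger receptor of alveolar macrophages, differed by 0.08 ± 0.20, Nod1 by -0.19 ± 0.10 and Fcgrt, which recycles antibody, by 0.01 ± 0.11, none of which passed the test.

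Lysosomal genes rose most widely of the 48 lists: 33 of 50 (66%) were higher against 9.6% of all genes, none was lower (1 lower at an unadjusted p under 0.05), and the median difference was 0.44. Lysosomes digest material from uptake and autophagy with acid hydrolases, and a rotating proton pump keeps them acid. Many of these genes are known to share a promoter motif, TCACGTG, that TFEB and its relatives bind. The promoters of the 4 members with the largest rises among those that hold the motif are shown because the same motif lies in several genes that moved together. Each is 300 bases, from 250 before to 50 after the gene's start, from RefSeq on GRCm38.p6, and capitals mark the motif or its reverse complement CACGTGA, merged where both overlap.
Ctsd: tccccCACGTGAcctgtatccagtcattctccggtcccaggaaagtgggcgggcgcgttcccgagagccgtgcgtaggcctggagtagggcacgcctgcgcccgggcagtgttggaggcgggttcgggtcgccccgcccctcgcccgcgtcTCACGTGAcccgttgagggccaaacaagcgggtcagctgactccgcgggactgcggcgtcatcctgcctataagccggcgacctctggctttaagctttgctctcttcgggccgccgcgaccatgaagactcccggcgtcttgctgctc
Ctsa: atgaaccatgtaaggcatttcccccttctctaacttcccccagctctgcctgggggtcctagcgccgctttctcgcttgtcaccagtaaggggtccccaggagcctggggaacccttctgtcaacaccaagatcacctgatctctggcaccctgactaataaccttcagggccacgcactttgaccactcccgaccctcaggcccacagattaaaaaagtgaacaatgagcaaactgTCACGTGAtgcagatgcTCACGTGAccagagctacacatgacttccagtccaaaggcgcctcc
Lgmn: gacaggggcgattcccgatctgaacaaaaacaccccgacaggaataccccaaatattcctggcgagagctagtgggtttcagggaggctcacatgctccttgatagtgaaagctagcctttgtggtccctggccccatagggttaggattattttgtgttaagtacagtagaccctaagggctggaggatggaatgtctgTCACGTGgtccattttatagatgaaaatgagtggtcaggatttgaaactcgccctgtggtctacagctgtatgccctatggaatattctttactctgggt
Naglu: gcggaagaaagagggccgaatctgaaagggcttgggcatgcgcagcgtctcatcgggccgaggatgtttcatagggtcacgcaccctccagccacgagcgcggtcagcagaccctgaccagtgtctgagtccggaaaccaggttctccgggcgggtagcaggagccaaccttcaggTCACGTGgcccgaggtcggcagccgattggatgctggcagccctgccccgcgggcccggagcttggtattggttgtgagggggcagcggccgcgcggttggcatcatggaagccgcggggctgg
Ctsd, read from the minus strand of chr7:142387778-142388077, holds 2 sites that begin 245 and 99 bases ahead of the start. Ctsa (plus strand, chr2:164833523-164833822) holds 2 sites 17 bases apart, around the start itself. Lgmn (minus strand, chr12:102439043-102439342) and Naglu (plus strand, chr11:101069844-101070143) hold 1 each, 50 and 74 bases ahead of it. The motif was searched on both strands in all windows of this length: 12 of 42 lysosomal genes with a promoter in the table held it (28.6%), against 1160 of 27025 genes overall (4.29%) and 855 of the 16321 that were also tested (5.24%). Among the members themselves, 7 of 28 that rose (25%) and 5 of 14 that were not called (35.7%) had a match. A match describes letters in the window and not binding.

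The 4 genes with those promoters encode a protease of the lysosome lumen (Ctsd), a protective protein with carboxypeptidase activity (Ctsa), legumain, which cuts after asparagine (Lgmn), and the N-acetylglucosaminidase that degrades heparan sulfate (Naglu). Ctsd read 14.67, 14.56 and 14.44 on the PBS arrays and 15.98, 16.24, 15.60, 15.94 and 16.02 on the bleomycin arrays, and all bleomycin arrays were above all PBS arrays. It rose by 1.40 ± 0.11 (limma adjusted p = 3.96e-07), Ctsa by 1.07 ± 0.20, Lgmn by 0.92 ± 0.09 and Naglu by 0.61 ± 0.13. Ctss, the cathepsin that trims the invariant chain, read 14.26, 14.21 and 14.28 on the PBS arrays and 15.84, 15.88, 15.59, 15.82 and 15.88 on the bleomycin arrays. Its rise of 1.55 ± 0.08 was the largest of the list (limma adjusted p = 5.97e-09), and its bleomycin arrays spanned only 15.59 to 15.88. Ctsb rose by 1.08 ± 0.09, Ctsh by 0.94 ± 0.09, the glycosidases Gusb and Hexa by 0.82 ± 0.09 and 0.74 ± 0.09, and the proton pump subunit Atp6v0d2 by 1.27 ± 0.08. Members that did not pass the test included the membrane protein Lamp2 (0.27 ± 0.12) and the glycosidases Gaa (0.10 ± 0.07) and Gla (0.09 ± 0.15). The count of rises lay between 28 and 34 when single arrays were left out and was 28 without both Rag1-high arrays; without bleomycin replicate 2 there was also 1 fall.

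**Figure D3:**
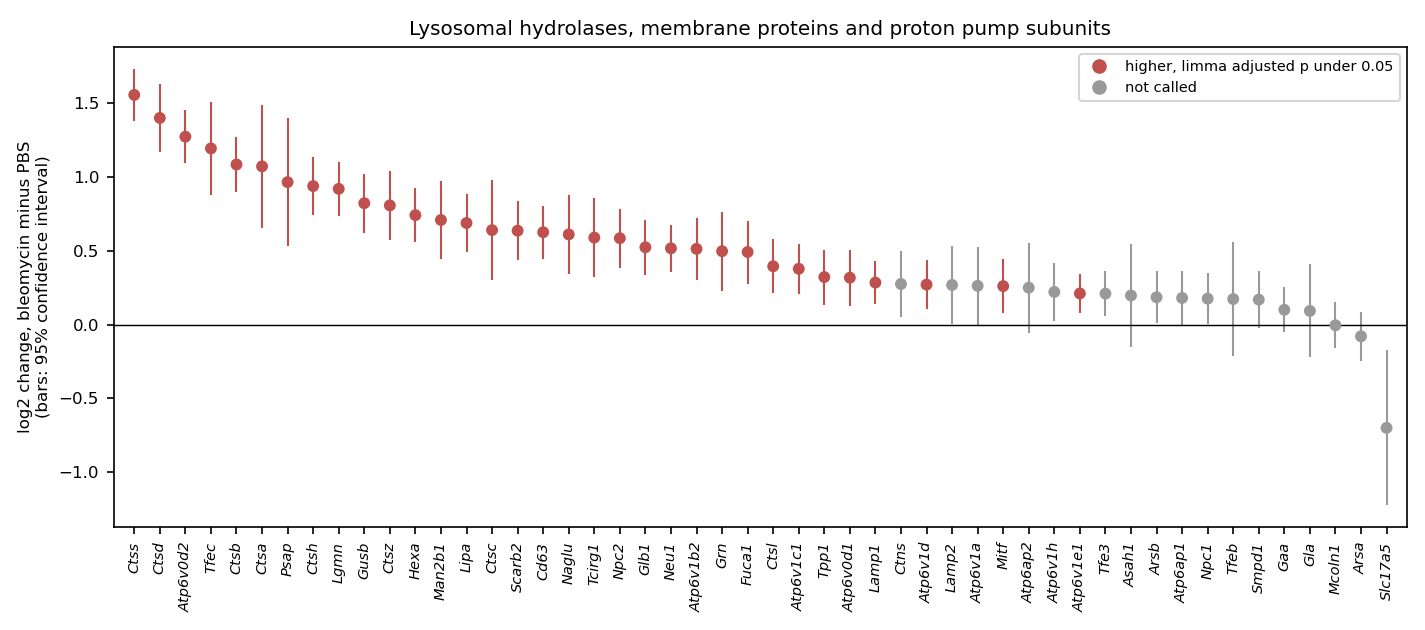
Difference between bleomycin and PBS in log2 intensity for each of the measured lysosomal genes, ordered by size, with bars for the 95% confidence interval. Red points are the 33 genes called higher and grey points the 17 not called; Ctss and Ctsd lead with 1.55 and 1.40.

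Genes known from osteoclasts, the fused bone-resorbing relatives of macrophages, rose in 12 of 30 members and fell in 3. Ctsk, the cathepsin that cleaves collagen in bone, read 11.55, 11.43 and 11.30 on the PBS arrays and 13.57, 13.28, 13.20, 13.48 and 13.76 on the bleomycin arrays. It rose by 2.03 ± 0.11 (limma adjusted p = 5.97e-09), again with no overlap. Dcstamp, needed for fusion of precursors, rose by 2.04 ± 0.27, Acp5, the tartrate-resistant acid phosphatase, by 1.46 ± 0.15, Tyrobp, the DAP12 adaptor, by 0.66 ± 0.07 and Adam8 by 0.73 ± 0.09. Itgb3, the beta 3 integrin chain that platelets share, fell by 0.78 ± 0.11 (limma adjusted p = 0.000122) and Mmp9, a gelatinase, by 0.78 ± 0.11 (limma adjusted p = 0.000121).

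Genes of lipid uptake and storage rose in 15 of 42 members and fell in 4, with a median of 0.22. Apoe, which carries lipid out of macrophages, rose by 1.29 ± 0.10 (limma adjusted p = 5.34e-07), from 15.13 to 15.27 on the PBS arrays to 16.38 to 16.64 on the bleomycin arrays. Olr1, a receptor for oxidised lipoprotein, rose by 1.19 ± 0.16, lipoprotein lipase Lpl by 0.91 ± 0.13, the lysosomal lipase Lipa by 0.69 ± 0.09 and the lysosomal phospholipase Pla2g15 by 0.50 ± 0.09. Next to Fabp1, the thioesterase Acot1 fell by 0.93 ± 0.12 and Cd36, a fatty acid receptor of both endothelium and macrophages, by 0.63 ± 0.11 (limma adjusted p = 4.39e-05 and 0.000807). Fabp4 differed by 0.75 ± 0.43 and Fabp5 by 0.20 ± 0.14, which did not pass the test, and Fabp4 was lowest on PBS replicate 3, the array with low Ucp1.

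Among chemokines, Ccl2 and Ccl12, which draw monocytes through CCR2, rose, and the decoy receptors Ackr1 and Ackr4 moved in opposite directions. Of 35 CC and CX3C members 11 rose and 4 fell, and the falls numbered 2 without PBS replicate 3 or without both Rag1-high arrays. Ccl12 read 6.84, 6.92 and 6.88 on the PBS arrays and 9.37, 8.97, 8.53, 9.52 and 9.74 on the bleomycin arrays. It rose by 2.35 ± 0.23 (limma adjusted p = 4.21e-06), with bleomycin replicate 3 lowest of its group and still above all PBS arrays. Ccl2 rose by 1.92 ± 0.38, Ccl8 by 1.85 ± 0.29, and the macrophage chemokines Ccl9 and Ccl6 by 1.62 ± 0.18 and 1.31 ± 0.09. Ackr1, a receptor of venules and red cells that carries chemokines without signalling, rose by 1.78 ± 0.25 (limma adjusted p = 0.000113). Ackr4, a scavenger of CCL19, CCL21 and CCL25, went the other way. It read 8.79, 9.00 and 8.88 on the PBS arrays and 7.10, 7.61, 7.96, 7.23 and 7.25 on the bleomycin arrays and fell by 1.46 ± 0.14 (limma adjusted p = 4.33e-06), and a probe named by its older symbol, Ccrl1, fell by 1.55 ± 0.19. Ackr3 and Ackr2 differed by 0.34 ± 0.13 and 0.01 ± 0.12 and did not pass the test. Cx3cr1, the fractalkine receptor of monocytes, rose by 0.60 ± 0.10. Its ligand Cx3cl1 differed by -1.17 ± 0.58 and did not pass, with bleomycin replicate 1 at 8.39 and the other bleomycin arrays at 11.61 to 12.20.

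In the CXC family 4 of 21 members rose and 5 fell. Cxcl16 and Cxcl17, both made by macrophages or epithelium, rose by 0.66 ± 0.09 and 0.61 ± 0.11. The neutrophil receptors parted: Cxcr1 rose by 1.15 ± 0.13 and Cxcr2 fell by 0.65 ± 0.12 (limma adjusted p = 1.28e-05 and 0.000829). Cxcr5, the follicular homing receptor of B cells, fell by 0.86 ± 0.16. Cxcl12, the stromal ligand that holds leukocytes in tissue, differed by 0.02 ± 0.08 and Cxcl15, a lung epithelial chemokine, by -0.09 ± 0.09, and neither passed.

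Interleukins, colony-stimulating factors and their receptors rose in 21 of 61 members and fell in 9. The chains of the receptors for IL-3 and for GM-CSF, through which alveolar macrophages mature and clear surfactant, rose together. Csf2rb2, the beta chain specific to IL-3 in mice, read 10.04, 10.20 and 10.20 on the PBS arrays and 11.66, 11.67, 11, 11.50 and 11.74 on the bleomycin arrays, with no overlap, and rose by 1.37 ± 0.15 (limma adjusted p = 9.7e-06). Csf2rb rose by 1.12 ± 0.12 and Csf2ra by 0.74 ± 0.09. Flt3, a receptor of dendritic cell precursors, rose by 1.01 ± 0.14, Lif by 0.62 ± 0.10 and the IL-1 antagonist Il1rn by 0.56 ± 0.10. Falls were seen for Lifr, the receptor of LIF (-0.87 ± 0.09, limma adjusted p = 5.01e-06), and for Kitl, the stem cell factor that supports mast cells (-0.91 ± 0.12, limma adjusted p = 5.66e-05). Ligand and receptor of the LIF pair therefore moved in opposite directions, while their co-receptor Il6st differed by -0.22 ± 0.08 and did not pass.

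The TNF families rose in 13 of 44 members and fell in 2, and the falls were 4 without bleomycin replicate 3. Tnfrsf23, a decoy for TRAIL, and Tnfrsf10b, the TRAIL death receptor, rose by 1.09 ± 0.09 and 1.08 ± 0.14, whereas the ligand TRAIL itself, Tnfsf10, fell by 0.57 ± 0.08 (limma adjusted p = 1.2e-06, 5.04e-05 and 0.000147). Tnfrsf12a, the TWEAK receptor of injured epithelium, rose by 0.94 ± 0.14 and Tnfrsf1b, the second TNF receptor, by 0.80 ± 0.16. Fas differed by -0.04 ± 0.11 and Tnfrsf1a, the first TNF receptor, by 0.22 ± 0.09, and neither passed.

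Acute-phase genes, which are switched on by IL-6 and IL-1 signals, rose in 11 of 21 members and fell in 2, with a median of 0.69. The falls were 0 without PBS replicate 3 or without both Rag1-high arrays, and 1 without PBS replicate 1 or 2 or without bleomycin replicate 1, 4 or 5. Lcn2, which captures bacterial iron carriers, read 13.37, 13.27 and 13.23 on the PBS arrays and 15.36, 15.57, 15.15, 15.15 and 15.17 on the bleomycin arrays. It rose by 1.99 ± 0.20 (limma adjusted p = 6.77e-06). Serpina3n, a protease inhibitor, rose by 1.31 ± 0.23, Orm1 by 0.97 ± 0.21, the pentraxin Ptx3 by 0.92 ± 0.19 and Socs3, the feedback inhibitor of IL-6 signals, by 0.96 ± 0.13. Bleomycin replicate 3 was the lowest of its group for Serpina3n, Orm1, Ptx3 and Socs3. Haptoglobin, Hp, differed by 0.11 ± 0.09 and ceruloplasmin, Cp, by 0.14 ± 0.11, without passing.

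Iron genes moved in both directions, 5 of 20 higher and 3 lower, and the rises were 3 when any one PBS array was left out. Hamp, which encodes hepcidin, the hormone that blocks iron export, read 8.64, 8.66 and 8.47 on the PBS arrays and 7.12, 7.57, 7.83, 7.20 and 6.74 on the bleomycin arrays. It fell by 1.30 ± 0.20 (limma adjusted p = 0.00024), and Bmp6, its inducer in the liver, fell by 1.15 ± 0.16 (limma adjusted p = 9.62e-05). Slc11a1, which pumps metals out of phagosomes, rose by 0.84 ± 0.11, the importer Slc39a14 by 0.87 ± 0.19, and the iron reductase Cybrd1 fell by 0.57 ± 0.11.

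The metal-binding metallothioneins Mt1 and Mt2 rose by 1.20 ± 0.10 and 1.74 ± 0.20 (limma adjusted p = 8.43e-07 and 2.02e-05), the largest rises of the oxidant list, of which 10 of 35 were higher and 4 lower. Cybb and Cyba, the membrane subunits of the phagocyte oxidase, rose by 0.94 ± 0.17 and 0.57 ± 0.09. Falls were those of the other oxidase Nox4 (-0.58 ± 0.10), catalase, Cat (-0.63 ± 0.12), and the glutathione transferase Gstm1 (-0.73 ± 0.14). The glutathione peroxidases Gpx1 and Gpx4 differed by 0.24 ± 0.09 and -0.01 ± 0.08 and the peroxiredoxin Prdx6 by -0.16 ± 0.08, none past the test.

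Of 33 genes of the amino acid stress response 10 rose and 2 fell. The falls were 1 without PBS replicate 2 or 3, without bleomycin replicate 1 or 5, or without both Rag1-high arrays. Atf3, a stress transcription factor, read 8.75, 8.87 and 8.64 on the PBS arrays and 9.88, 10.01, 9.93, 9.95 and 9.95 on the bleomycin arrays, and rose by 1.19 ± 0.13 (limma adjusted p = 1.74e-05) with the 5 bleomycin arrays closely together. Enzymes that make serine, folate-bound carbon and proline rose with it: Psat1 by 1.10 ± 0.18, Mthfd2 by 0.67 ± 0.12 and Pycr1 by 0.67 ± 0.13. The cystine importer Slc7a11 rose by 0.57 ± 0.09 and Sesn2 by 0.74 ± 0.15, while Atf5 fell by 0.47 ± 0.07. In arginine and tryptophan metabolism 8 of 19 rose, 5 without PBS replicate 2 or 3, without bleomycin replicate 1 or 2, or without both Rag1-high arrays. Gatm, the first enzyme of creatine synthesis, rose by 1.02 ± 0.21, the mitochondrial arginase Arg2 by 0.85 ± 0.11, the inducible nitric oxide synthase Nos2 by 0.81 ± 0.18 and Kynu, of the kynurenine path, by 0.60 ± 0.11. In glycolysis 7 of 27 rose and 1 fell, and without bleomycin replicate 3 there were 2 falls. Gapdh rose by 0.59 ± 0.10, Hk2 by 0.60 ± 0.14 and Ldha by 0.52 ± 0.08, whereas the glucose importer Slc2a3 fell by 0.93 ± 0.15 (limma adjusted p = 0.000353).

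Matrix proteins beyond the collagens rose in 23 of 46 members and fell in 3, with a median of 0.34. Without both Rag1-high arrays 15 rose and 1 fell, and the falls were also 1 without PBS replicate 1 or 2 or without bleomycin replicate 5. Cilp, a matrix protein of cartilage and of activated fibroblasts, read 6.94, 6.84 and 6.68 on the PBS arrays and 8.74, 8.53, 8.20, 8.51 and 8.85 on the bleomycin arrays. It rose by 1.75 ± 0.20 (limma adjusted p = 1.74e-05), with no overlap. Tnc, the adhesion-modulating tenascin C, rose by 1.34 ± 0.23, Thbs2 by 1.10 ± 0.16, Ltbp2 by 1.07 ± 0.14, and the microfibril proteins Mfap4 and Mfap5 by 1.06 ± 0.13 and 0.90 ± 0.10. Decorin, Dcn, differed by -0.13 ± 0.11, Sparc by 0.06 ± 0.09 and Sparcl1 by 0.15 ± 0.12, and these did not pass the test.

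BMP and activin signalling was one of the lists with more falls than rises among its called members, 12 lower and 9 higher of 40, with a median of -0.13. The counts were 8 lower and 6 higher without both Rag1-high arrays. BMPs act through receptors and SMAD proteins to keep lung endothelium quiet, and secreted antagonists block them. The antagonist Grem1 read 5.95, 5.97 and 6.22 on the PBS arrays and 8.69, 7.93, 6.85, 8.38 and 8.92 on the bleomycin arrays. It rose by 2.11 ± 0.35 (limma adjusted p = 0.000509), with bleomycin replicate 3 nearest to PBS and no overlap, and with PBS arrays near the median of all spots the size may be a lower bound. The ligand Bmp6 read 11.68, 11.68 and 11.75 on the PBS arrays and 10.39, 10.91, 10.97, 10.18 and 10.33 on the bleomycin arrays, the opposite picture, with all bleomycin arrays below all PBS arrays. Acvrl1, the ALK1 receptor of endothelium, read 14.22, 14.39 and 14.32 on the PBS arrays and 13.25, 13.40, 13.98, 13.30 and 13.21 on the bleomycin arrays, and fell by 0.88 ± 0.15 (limma adjusted p = 0.000557). Down the path, Smad9 fell by 0.87 ± 0.11 and the inhibitory Smad6 by 0.77 ± 0.14, and the receptor Acvr2b by 0.53 ± 0.10. Another antagonist, Chrdl1, fell by 0.74 ± 0.11, and the procollagen protease Bmp1, which shares only the name, rose by 0.63 ± 0.08. Bmp4 differed by -0.01 ± 0.15, and the target genes Id1 and Id3 by -0.07 ± 0.09 and -0.25 ± 0.09, none past the test.

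**Figure D4:**
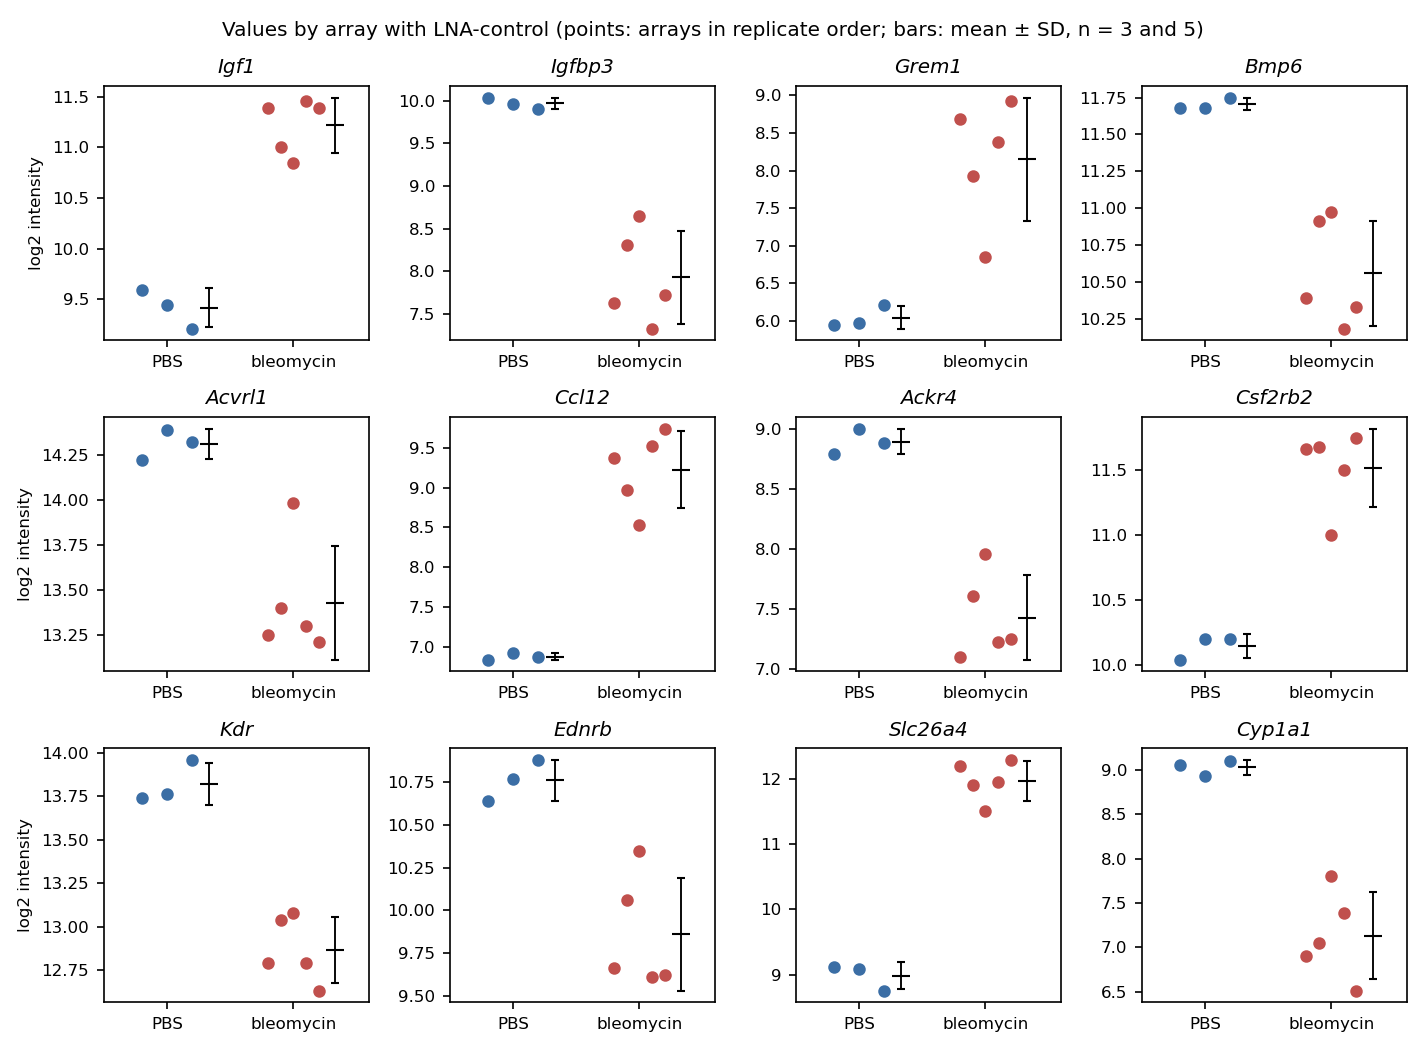
Log2 intensity (y axis, its own range in each panel) on the 3 PBS and 5 bleomycin arrays for 12 genes of growth signals, chemokines, vessels, ion transport and drug metabolism. Points are arrays in replicate order and bars the mean ± SD. In each panel the groups did not overlap, as for 25.3% of all genes. Igf1, Grem1, Ccl12, Csf2rb2 and Slc26a4 were higher and Igfbp3, Bmp6, Acvrl1, Ackr4, Kdr, Ednrb and Cyp1a1 were lower after bleomycin.

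The IGF axis changed in its ligand and in its binding proteins, 5 of 21 members higher and 4 lower. Igf1, a growth factor that macrophages and fibroblasts release, read 9.59, 9.45 and 9.21 on the PBS arrays and 11.39, 11, 10.85, 11.46 and 11.39 on the bleomycin arrays. It rose by 1.80 ± 0.14 (3.48-fold, 95% confidence interval 1.51 to 2.09 on the log2 scale, limma adjusted p = 3.96e-07), and the groups did not overlap. Igfbp3, a carrier that holds IGF1 back from its receptor, read 10.04, 9.97 and 9.91 on the PBS arrays and 7.62, 8.31, 8.65, 7.32 and 7.72 on the bleomycin arrays. It fell by 2.05 ± 0.23 (limma adjusted p = 1.67e-05), less in replicates 2 and 3 than in the others. Igfbp2 rose by 1.18 ± 0.10 and Igfbp6 fell by 1.03 ± 0.15 (limma adjusted p = 6.13e-07 and 0.000202). Pappa2, a protease that frees IGF1 from its carriers, rose by 1.71 ± 0.28, and the receptor Igf1r fell by 0.56 ± 0.09. Igfbp4, Igfbp5 and Htra1 differed by 0.33 ± 0.13, -0.28 ± 0.13 and 0.11 ± 0.08, none past the test.

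Wnt genes rose in 13 of 50 members and fell in 7, and the falls were 4 without PBS replicate 3. Wnt10a read 6.56, 6.03 and 5.66 on the PBS arrays and 8.41, 7.98, 7.61, 8.15 and 8.33 on the bleomycin arrays, and rose by 2.01 ± 0.36 (limma adjusted p = 0.000897). Its groups did not overlap, although the PBS arrays were themselves spread over nearly a unit. The secreted inhibitor Sfrp1 rose by 1.47 ± 0.19, Wnt7b of epithelium by 0.90 ± 0.12 and Ccn4, a Wnt-induced matrix protein, by 0.98 ± 0.20. Wnt10b fell by 0.78 ± 0.12, the receptor Fzd4 by 0.59 ± 0.11 and Rspo1, which strengthens Wnt signals, by 0.53 ± 0.09. Ligands and inhibitors of the same path thus moved in both directions.

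Among ligands and receptors of receptor tyrosine kinases 8 of 49 rose and 11 fell. The rises were 5 without PBS replicate 3 or without both Rag1-high arrays, and the falls were 7 without PBS replicate 2, 6 without PBS replicate 3 and 5 without both Rag1-high arrays. Ereg, or epiregulin, an EGF receptor ligand, rose by 1.80 ± 0.34, Pdgfc by 0.98 ± 0.11 and Nrg1, a ligand of ERBB3, by 0.87 ± 0.09 (limma adjusted p = 0.00148, 1.23e-05 and 1.09e-05). Fgf7, which fibroblasts send to epithelium, fell by 0.73 ± 0.12, Bdnf by 0.86 ± 0.11, and the vessel genes Angpt2 and Flt1 by 1.04 ± 0.10 and 0.63 ± 0.11. Fgfr3, Pdgfa and Pdgfb differed by -0.18 ± 0.15, -0.04 ± 0.08 and -0.07 ± 0.11 and did not pass.

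The list named capillary endothelium fell most widely of the 48 lists, with 23 of 36 members (63.9%) lower against 7.9% of all genes. Of its members 2 were higher, and the median difference was -0.45. It also holds genes of endothelium in general, such as Cdh5, and of larger vessels, such as Vwf, so its counts do not single out capillaries. Kdr, the main VEGF receptor, read 13.74, 13.76 and 13.96 on the PBS arrays and 12.79, 13.04, 13.08, 12.79 and 12.63 on the bleomycin arrays. It fell by 0.95 ± 0.10 (limma adjusted p = 1.02e-05), with all 5 bleomycin arrays below PBS. Esm1, a proteoglycan that VEGF induces, fell by 1.66 ± 0.19, the phosphatase Ptprb by 0.84 ± 0.12, the kinase Bmx by 0.78 ± 0.11 and the lectin Cd93 by 0.47 ± 0.07. Ackr1, which marks venules, was 1 of the 2 that rose. Vwf, made by larger vessels and megakaryocytes, differed by -0.03 ± 0.11, Emp2 by -0.16 ± 0.08 and Tbx2 by -0.33 ± 0.19, none past the test. Between 18 and 24 members fell when single arrays were left out.

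Genes that set vascular tone fell in 16 of 36 members and rose in 3, with a median of -0.27. Ednrb, the endothelin receptor that clears endothelin in the lung, read 10.64, 10.77 and 10.88 on the PBS arrays and 9.66, 10.06, 10.35, 9.61 and 9.62 on the bleomycin arrays. It fell by 0.90 ± 0.15 (limma adjusted p = 0.000416), least in replicate 3, and no array overlapped. Both subunits of the nitric oxide receptor guanylate cyclase fell, Gucy1a1 by 0.68 ± 0.07 and Gucy1b1 by 0.57 ± 0.10 (limma adjusted p = 4.49e-06 and 0.000645). The serotonin transporter Slc6a4 fell by 0.80 ± 0.14, apelin, Apln, by 0.73 ± 0.12, the phosphodiesterase Pde3a by 0.69 ± 0.12 and the angiotensin receptor Agtr1a by 0.52 ± 0.09. Htr2b, a serotonin receptor of fibroblasts and vessels, rose by 0.99 ± 0.17 (limma adjusted p = 0.000549). The endothelial nitric oxide synthase Nos3 differed by 0.29 ± 0.12, the natriuretic receptor Npr2 by -0.24 ± 0.15 and Ace by -0.04 ± 0.21, and these did not pass.

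Ppbp, a platelet granule chemokine and one of the 25 largest falls, read 13.21, 13.14 and 13.17 on the PBS arrays and 11.41, 11.67, 11.66, 11.38 and 11.51 on the bleomycin arrays. It fell by 1.64 ± 0.14 (limma adjusted p = 1.12e-06), with each group's arrays close together and far from the other group's. Pf4 fell by 1.22 ± 0.11, Gp9, part of the receptor for von Willebrand factor, by 1.53 ± 0.18, Clec1b, the CLEC-2 receptor, by 1.30 ± 0.12, and the platelet lipoxygenase Alox12 by 1.35 ± 0.13 (limma adjusted p = 1.2e-06, 3.05e-05, 2.72e-06 and 5.09e-06). The ATP and ADP receptors of platelets, P2rx1 and P2ry12, fell by 0.72 ± 0.10 and 0.61 ± 0.09. These genes were not a fixed list and were brought together after their values were seen. Other genes that platelets also carry went the other way or did not pass: Ptgs1 rose by 0.70 ± 0.10, Tbxas1 rose by 0.97 ± 0.14, and Vwf differed by -0.03 ± 0.11.

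In coagulation and fibrinolysis 8 of 30 rose and 3 fell, the falls being 1 without PBS replicate 2. F7, which starts the extrinsic cascade, rose by 1.28 ± 0.13, Procr, the protein C receptor, by 1.09 ± 0.11, the thrombin inhibitor Serpine2 by 0.87 ± 0.16 and the plasminogen activator Plat by 0.55 ± 0.11 (limma adjusted p = 4.74e-06, 8.15e-06, 0.000975 and 0.00212). F5, which platelets also carry, fell by 1.00 ± 0.19 (limma adjusted p = 0.00127).

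Prostanoid and leukotriene genes rose in 9 of 32 members and fell in 3. The enzymes that make thromboxane and prostaglandin D2 in macrophages rose, Tbxas1 and the upstream cyclooxygenase Ptgs1 as given above and Hpgds by 0.86 ± 0.13. Hpgd, which breaks prostaglandins down, fell by 0.82 ± 0.12 (limma adjusted p = 0.000192). The prostaglandin E2 receptors Ptger1 and Ptger4 rose by 1.08 ± 0.14 and 0.85 ± 0.12. In the lysophosphatidate, sphingosine and purine list 10 of 35 rose and 8 fell. The UDP receptor P2ry6 rose by 0.95 ± 0.09, the adenosine receptor Adora3 by 0.82 ± 0.14, the UDP-glucose receptor P2ry14 by 0.70 ± 0.12, and Sgpl1, which degrades sphingosine 1-phosphate, by 0.61 ± 0.08. Plpp3, a lipid phosphatase of endothelium that inactivates lysophosphatidate, fell by 0.67 ± 0.11.

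Guidance cues, which steer axons and vessels, rose in 8 of 48 members and fell in 9, and the rises were 5 without PBS replicate 1 and 3 without both Rag1-high arrays. The arterial ligand Efnb2 fell by 0.86 ± 0.11, Ntn4 by 0.51 ± 0.08 and the vascular semaphorin Sema3g by 0.51 ± 0.10, while Robo2 rose by 0.82 ± 0.16. Notch and hedgehog genes rose in 3 of 31 members (9.68%, against 9.6% of all genes) and fell in 6 (19.4%, against 7.9%). The falls were 2 without PBS replicate 3 or without both Rag1-high arrays, and the rises ranged from 1 to 5, with 1 without any one PBS array or without bleomycin replicate 1 or 5 and 5 without bleomycin replicate 2. Hes6 rose by 0.65 ± 0.09, and Cdon and Notch3 fell by 0.35 ± 0.07 and 0.36 ± 0.08. In the adhesion list 9 of 41 rose and 7 fell, with 4 falls without both Rag1-high arrays. The leukocyte integrin chain Itgb2 rose by 0.99 ± 0.11, the CD103 chain Itgae by 0.88 ± 0.14 and the laminin receptor chain Itga7 by 0.91 ± 0.09, and Itga1, a collagen receptor chain, fell by 0.72 ± 0.09.

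Airway secretory genes moved in both directions: 12 of 34 rose and 6 fell, with 3 falls without PBS replicate 3. Retnla, a secreted resistin-like protein of type 2 inflammation, read 13.74, 13.49 and 13.45 on the PBS arrays and 16.19, 15.66, 14.92, 16.01 and 16.15 on the bleomycin arrays. It rose by 2.23 ± 0.39 (limma adjusted p = 0.000763), and its bleomycin arrays stood above all PBS arrays, replicate 3 the lowest. Agr2, a folding factor for mucins, rose by 1.03 ± 0.18, the mucin Muc4 by 0.85 ± 0.10, the scavenger protein Dmbt1 by 1.11 ± 0.11 and the chloride channel regulators Clca3a1 and Clca3a2 by 1.39 ± 0.17 and 1.23 ± 0.17, whose similar sequences may share signal. Scgb1c1, a secretoglobin, and Pon1 fell by 0.91 ± 0.15 and 1.32 ± 0.15 (limma adjusted p = 0.000608 and 2.44e-05). The most abundant club cell products showed smaller differences that did not pass, Cyp2f2 at -0.19 ± 0.12 and Scgb1a1 at -0.04 ± 0.07. Scgb1a1 lay close to 18.32, the highest value of the table, where quantile normalization leaves little room for a difference.

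Of 31 tight junction and keratin genes 10 rose and 3 fell, with 5 falls without bleomycin replicate 3. Cldn4, a claudin of tight epithelia, read 6.58, 6.55 and 5.88 on the PBS arrays and 8.07, 7.93, 7.54, 7.98 and 8.25 on the bleomycin arrays. It rose by 1.62 ± 0.20 (limma adjusted p = 4.06e-05), with PBS replicate 3 the lowest PBS array. Krt8 and Krt18, which pair in simple epithelia, rose by 0.81 ± 0.10 and 0.53 ± 0.09, the laminin chain Lamb3 by 0.60 ± 0.07 and the pore-forming Cldn2 by 0.87 ± 0.12. Cldn10 fell by 0.80 ± 0.11, and the endothelial claudin Cldn5 by 0.49 ± 0.11.

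Among type 1 alveolar genes 4 of 24 rose and 6 fell, and the falls were 3 without PBS replicate 3 and 2 without both Rag1-high arrays. Spock2, a matrix proteoglycan, rose by 1.46 ± 0.12 (limma adjusted p = 7.62e-07), and the caveolins Cav1 and Cav2, which endothelium shares, fell by 0.58 ± 0.10 and 0.54 ± 0.10. Among type 2 genes 7 of 26 rose and 5 fell. The rises were 4 without PBS replicate 3, and the falls were 2 without PBS replicate 2 or both Rag1-high arrays and 3 without PBS replicate 3 or bleomycin replicate 1, 4 or 5. The endocytic receptor Lrp2 rose by 0.75 ± 0.08, the lysozyme Lyz2, which macrophages share, by 0.61 ± 0.09 and the desaturase Scd1 by 0.48 ± 0.09. The falls included Bex2, the largest change of the list (-2.18 ± 0.22), and Cd36, both given above. Surfactant protein A, Sftpa1, differed by -0.22 ± 0.10 and did not pass. For Sftpc the 8 arrays read the same value, the highest of the table, so a difference there could not have been seen.

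Epithelial transport genes rose in 5 of 30 members and fell in 4, with 2 falls without PBS replicate 2 or both Rag1-high arrays and 1 without PBS replicate 3. Next to Slc26a4 and Fxyd4, the calcium-gated potassium channel Kcnn4 rose by 0.93 ± 0.12 (limma adjusted p = 8.31e-05) and Kcnj15 by 0.57 ± 0.09, and Kcne2 fell by 0.55 ± 0.10. The sodium channel subunit Scnn1a differed by 0.12 ± 0.11, the water channel Aqp1 by -0.06 ± 0.09 and the chloride channel Ano1 by 0.19 ± 0.07, none past the test.

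Enzymes that handle drugs, aldehydes and other foreign compounds fell in 16 of 42 members and rose in 4, with a median of -0.21. Cyp1a1, a cytochrome P450 that the aryl hydrocarbon receptor induces, read 9.06, 8.93 and 9.10 on the PBS arrays and 6.90, 7.05, 7.81, 7.39 and 6.51 on the bleomycin arrays. It fell by 1.90 ± 0.29 (3.74-fold, limma adjusted p = 0.000299), and that receptor, Ahr, fell by 0.72 ± 0.07 (limma adjusted p = 2.92e-06). Fmo1 and Fmo2, flavin monooxygenases, fell by 1.11 ± 0.16 and 1.04 ± 0.16, Cyp4b1 by 1.10 ± 0.15, the aldehyde oxidase Aox3 by 1.07 ± 0.16, the esterase Ces1e by 0.88 ± 0.14 and the glutathione transferase Gsta3 by 0.90 ± 0.15. The rises were 2 without PBS replicate 2 or 3 or without bleomycin replicate 1 or 5. Cbr2 and Ephx1 differed by -0.15 ± 0.10 and 0.38 ± 0.14 and did not pass. These enzymes sit in club cells, type 2 cells and endothelium alike, and which cells lost signal cannot be told apart in whole lung.

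Antigen presentation through MHC class II rose in 9 of 17 members and fell in 2, with a median of 0.46, while class I rose in 2 of 20 (10%) and fell in 1 (5%), shares near those of all genes. The class II falls were 1 without any one PBS array, without bleomycin replicate 1, 3 or 5, or without both Rag1-high arrays. The class I rises were 0 without any one PBS array or without bleomycin replicate 1 or 4, and 1 without bleomycin replicate 5. The class I fall was lost without PBS replicate 2 or 3 or without bleomycin replicate 1, 3, 4 or 5, and no class I gene was called without both Rag1-high arrays. The class II chains H2-Eb1 and H2-Ab1 rose by 0.78 ± 0.12 and 0.68 ± 0.11, the thiol reductase Ifi30 by 0.73 ± 0.11 and the costimulator Cd86 by 1.13 ± 0.13 (limma adjusted p = 0.000238, 0.000492, 0.000196 and 2.41e-05). H2-Ob, which restrains loading in B cells, fell by 0.78 ± 0.14.

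Genes of helper and regulatory T cells rose in 9 of 27 members, 5 without both Rag1-high arrays, and fell in 2. The checkpoint receptor Pdcd1 rose by 1.08 ± 0.21, Havcr2, which macrophages and dendritic cells also carry, by 0.91 ± 0.11, the IL-2 receptor chain Il2ra by 1.00 ± 0.21 and Lag3 by 0.59 ± 0.11. Gata3, which directs type 2 T cells and innate lymphoid cells, read 10.11, 10.21 and 10.04 on the PBS arrays and 9.09, 9.30, 9.33, 9.16 and 8.88 on the bleomycin arrays. It fell by 0.97 ± 0.10 (limma adjusted p = 1.21e-05), on all 5 bleomycin arrays alike.

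Bleomycin replicates 1 and 4 carried a set of thymus genes that no other array of the 8 showed. Rag1, which with Rag2 cuts antigen receptor genes, read 5.71, 5.62 and 5.43 on the PBS arrays and 10.03, 5.50, 5.64, 10.88 and 6.00 on the bleomycin arrays. Rag2 read 7.37 and 8.13 on those 2 arrays, Dntt, which adds bases at the joins, 11.10 and 12.17, and Ptcra, the pre-T-cell receptor chain, 6.55 and 7.23. The highest of the other 6 arrays reached 5.35 for Rag2, 7.35 for Dntt and 5.53 for Ptcra. Cd8b1, the CD8 beta chain of most thymocytes, read 9.06 and 9.73. Of genes that thymic epithelium makes, Prss16 read 9.43 and 10.31 and Ccl25 read 10.91 and 11.55. The mean over 27 thymocyte genes was 9.11 and 9.70 on these arrays, against 8.03 to 8.09 on the PBS arrays and 7.88 to 8.03 on bleomycin replicates 2, 3 and 5. With all 5 bleomycin arrays limma called none of the 27 thymocyte genes, with 2 higher and 0 lower at an unadjusted p under 0.05, and their median was 0.37. With array weights 7 were called higher and 1 lower. Without the 2 arrays 2 were called lower and the median was -0.13. Of 13 thymic epithelium genes 1 was called higher with all arrays, Krt8, which is also in the keratin list above. The count was 2 without PBS replicate 1, while 2 were called lower without bleomycin replicate 3 and 1 without replicate 2. The median of the 13 genes went from 0.35 to 0.00 without both Rag1-high arrays. Of 20 genes of heart and skeletal muscle 6 were called lower, among them Myh7 and Tnni3 (-0.85 ± 0.13 and -0.65 ± 0.14), and 3 without PBS replicate 2 or 3, without bleomycin replicate 1, 4 or 5, or without both Rag1-high arrays. The fit on the 8 arrays alone called 5 of these 20 genes higher beside 6 lower.

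DNA replication and repair genes rose in 28 of 54 members and fell in 1, with a median of 0.42, and thymocytes divide. Without both Rag1-high arrays 17 rose, and without PBS replicate 3 there were 18. Exo1, an exonuclease of repair, read 6.51, 6.25 and 6.53 on the PBS arrays and 7.90, 7.16, 7.01, 8.35 and 8.05 on the bleomycin arrays, highest on replicates 4, 5 and 1. Tk1, the thymidine kinase of S phase, rose by 1.45 ± 0.20, the replication factor Gins2 by 1.19 ± 0.19, the polymerase Pole by 1.16 ± 0.23, and Fanci, of crosslink repair, by 1.06 ± 0.21 (limma adjusted p = 9.03e-05, 0.000327, 0.00213 and 0.00178). Fancb fell by 0.60 ± 0.09. Pcna, the sliding clamp, differed by 0.18 ± 0.14 and did not pass. The list mean was 8.59 to 8.68 on the PBS arrays, 9.33 and 9.36 on replicates 1 and 4, and 8.93, 8.75 and 9.30 on replicates 2, 3 and 5, so it stood above PBS also on the arrays without raised thymocyte genes; what share of the rise on replicates 1 and 4 came with the thymus genes was not tested.

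**Figure D5:**
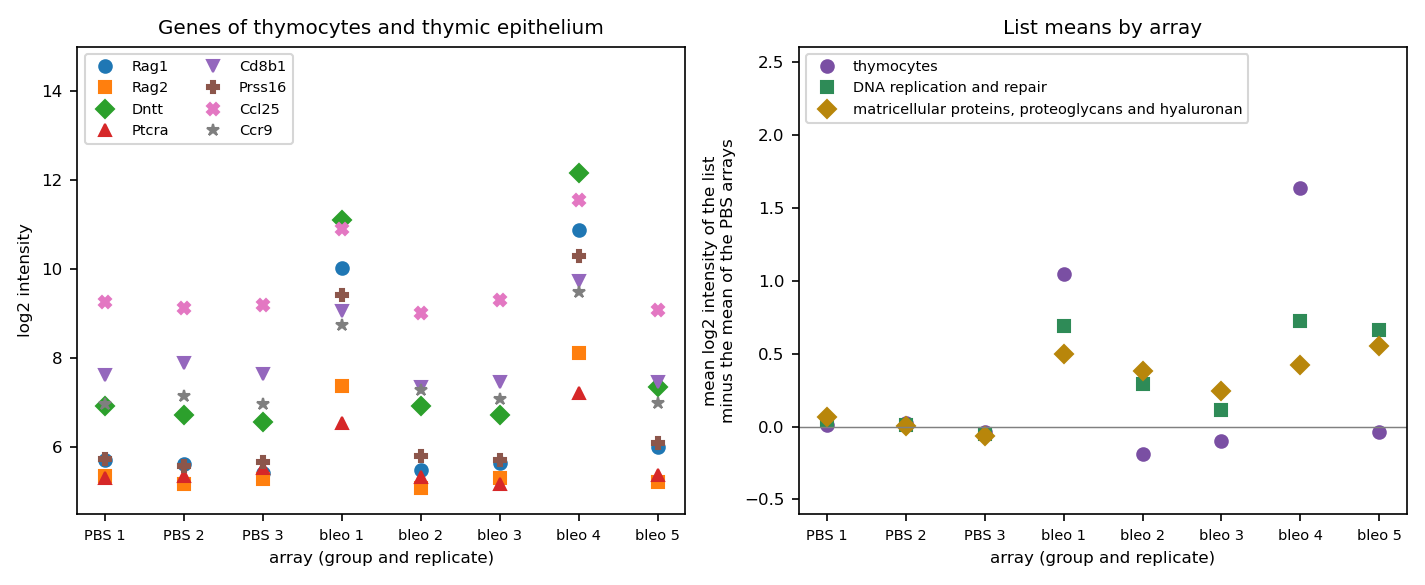
Left, log2 intensity of 8 genes of thymocytes and thymic epithelium on each of the 3 PBS and 5 bleomycin (bleo) arrays: all 8 are raised on bleomycin replicates 1 and 4, with Rag1 at 10.03 and 10.88. Right, mean log2 intensity of 3 gene lists minus the mean of the PBS arrays: thymocyte genes are raised on replicates 1 and 4, DNA replication genes on 1, 4 and 5 most, and matricellular genes on all 5 bleomycin arrays.

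Clock genes counted 3 of 18 higher (16.7%, against 9.6% of all genes) and 2 lower (11.1%, against 7.9%). Bhlhe40, a repressor of the clock, rose by 1.18 ± 0.12 and Per2 by 0.88 ± 0.17, and Arntl, which encodes BMAL1, fell by 0.88 ± 0.16 (limma adjusted p = 4.51e-06, 0.00162 and 0.000958). The labels give no hour of collection. In the respiratory chain 1 of 31 members (3.23%, against 9.6% of all genes) was higher. None was higher without PBS replicate 3, bleomycin replicate 1, 3 or 4, or both Rag1-high arrays, and 1 was lower without bleomycin replicate 3. Cholesterol synthesis had 2 of 20 higher and 2 lower, 10% each way, near the 9.6% and 7.9% of all genes. When single arrays were left out 1 to 3 were higher and 0 to 1 lower, with 0 lower without PBS replicate 2 or 3. The counts were 1 higher and 0 lower without both Rag1-high arrays. All 13 cartilage genes lay under the median level of 8.45, with a list mean of 5.41 to 5.7 on the 8 arrays. Of these genes 2 were higher (15.4%, against 9.6% of all genes). The count was 0 without PBS replicate 1 or 3, bleomycin replicate 1 or 5, or both Rag1-high arrays. It was 1 without PBS replicate 2 or bleomycin replicate 3 or 4. Limma called none of the 17 fat genes, with 1 higher and 0 lower at an unadjusted p under 0.05, and none of the 10 red blood cell genes, with 0 higher and 2 lower at an unadjusted p under 0.05, although 1 was lower without bleomycin replicate 2. With array weights 3 fat genes were higher and 4 red blood cell genes lower. Squamous epithelium had 1 of 19 higher, with a median of 0.84. The count was 0 without any one PBS array, bleomycin replicate 1 or both Rag1-high arrays. The squamous list mean was 9.41, 8.98 and 8.26 on the PBS arrays and 9.25 to 9.93 on the bleomycin arrays, and Krt4 read 9.35 on PBS replicate 3, 11.73 and 11.02 on the other PBS arrays and 11.08 to 12.52 on the bleomycin arrays. The part of single arrays in that median was not tested.

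The same contrast in lungs given LNA-miR-199a-5p, with its own 5 bleomycin and 3 PBS arrays, was compared for the 10 largest rises and the 10 largest falls. The difference between the arms passed the test for 9 of the 10 rises and 5 of the 10 falls, against 7.01% of all genes. These genes were picked as extremes of the LNA-control arm, a choice that by itself favours smaller changes in the other arm. Thbs4 rose by 3.44 ± 0.43 with LNA-control and differed by 0.96 ± 0.43 with the inhibitor, and Slc26a4 by 2.98 ± 0.45 and 0.71 ± 0.45. Saa3 was the exception among the rises: its change was 2.84 ± 0.54 and 2.85 ± 0.54, a difference between arms of 0.01 (limma adjusted p = 0.9954). Ppbp and Gp9 were called lower in both arms, with -1.05 ± 0.14 and -0.82 ± 0.18 in the inhibitor arm. Cyp26b1 was also called lower in both, by -1.71 ± 0.48 with LNA-control and -2.31 ± 0.48 with the inhibitor, the larger change there, and the difference between arms did not pass (limma adjusted p = 0.6558). Fabp1 differed in the inhibitor arm by -0.41 ± 0.19 without passing the test.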

How the data were processed

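Whole-lung RNA of 16 samples was read on 1-colour Agilent arrays of 62976 spots, per the labels. The authors deposited 1 log2 intensity per spot and sample; limma is named in the submitters' processing notes, with no version, and the background correction is not given in the sources used here. The deposited log2 values span 4.61 to 18.32, and at every rank the 16 arrays differ by no more than 0.0974, as after quantile normalization; no depth applies, and array number limits precision. Probes were named through the platform annotation: 31465 carried a symbol and 31511 spots stayed unnamed. Through their accessions 29050 probes matched the RefSeq table, and 2933 symbols were updated. For each of 20863 genes the probe with the highest mean over the 16 arrays was kept; of 1203 called genes with several probes, 7 had another probe called the opposite way. All 4 groups entered 1 fit in limma 3.58.1 (R 4.3.3) with lmFit and eBayes, two-sided, and the code was tested on simulated data. Named were the 25 largest rises and falls above the median level without overlap, and per list up to 8 members with the smallest p and 3 highly expressed members not called. Exceptions are Ctsa and Naglu (promoters) and Ager, Cdh5, Ucp1 and Krt4, named after their values were seen. Members and gene lists were chosen with earlier results of these data known. Alternatives left out single arrays, both Rag1-high arrays or the other arm, or changed weights, variances, centring, probe choice, symbols or filters. Replicate numbers do not pair the samples: the deviations of same-numbered arrays correlated at -0.007, -0.038 and -0.102.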

Additional observations from a re-analysis of the deposited data

Results flagged for a closer look

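In 17 of 322 genes named, 1 bleomycin array stood far from the other 4 (gap over range above 0.71), which chance gives in about 1 in 20 groups. In 13 of the 17 the array was replicate 3, and in most of these it lay on the PBS side. Its level was 9.31 for Fabp1 against 8.30 to 8.49 on the others, 13.98 for Acvrl1 against 13.21 to 13.40, 12.34 for Acot1 against 11.80 to 11.89, and 10.49 for Angpt2 against 10.03 to 10.14. Ephx1 read 15.9 there against 15.26 to 15.34, Kcnj15 11.25 against 10.96 to 11.02, and Gaa 14.11 against 13.90 to 13.95. It was the lowest array for C1qb (11.35, others 11.93 to 12.10), Csf2rb (12.11, others 12.51 to 12.66), Ctss (15.59, others 15.82 to 15.88), Sfrp1 (8.13, others 8.99 to 9.31), Hp (16.6, others 16.87 to 16.95) and Scgb1a1 (18.0, others 18.09 to 18.12). Other arrays stood apart for Cx3cl1 (replicate 1 at 8.39, others 11.61 to 12.20), Pdgfb (replicate 4 at 13.61, others 13.29 to 13.38), Sesn2 (replicate 2 at 10.82, others 10.22 to 10.34) and Treml1 (replicate 2 at 7.2, others 10.48 to 10.74).

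Of the 20 genes compared between arms, 14 differed by limma's interaction term, given here as the bleomycin effect with LNA-miR-199a-5p minus that with LNA-control. The 20 genes were picked as extremes of the LNA-control arm, a choice that by itself favours smaller changes in the other arm. Among the rises the difference was -3.80 for Spp1, -2.79 for Trem2, -2.81 for Gdf15, -2.47 for Gpnmb and -2.13 for Ms4a7 (limma adjusted p = 2.81e-06, 2.85e-08, 1.421e-07, 1.421e-07 and 6.487e-06). It was -2.49 for Fxyd4, -2.47 for Thbs4, -2.26 for Slc26a4 and -1.89 for Timp1 (limma adjusted p = 0.00366, 0.02431, 0.04148 and 0.02747). Among the falls it was 2.50 for Fabp1, 1.68 for Bex2, 1.81 for Igfbp3, 1.47 for Esm1 and 1.29 for Ccrl1 (limma adjusted p = 6.637e-05, 0.005782, 0.004469, 0.00562 and 0.01022).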

How the results depend on the processing

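Against 3651 called genes with all arrays, refits without single arrays called between 2292 (without PBS replicate 3) and 3984 (without bleomycin replicate 3). The higher calls ranged from 1303 to 2156, the lower from 989 to 1933, and those of at least 2-fold from 318 to 476. Without both Rag1-high arrays the counts were 2258 in all, 1306 higher and 952 lower. With the replicate block, although the numbers do not pair the samples, they were 2429, 1361 and 1068. With array weights they were 6713, 3501 and 3212. Among genes above the median level alone, where fewer genes are tested, 225 changed at least 2-fold against 371. Apart from the smaller sets of arrays and genes, the cause of these moves was not tested. Centring on the median moved the median of all genes from 0.0035 to -0.0442. Of 259 named genes that were called, none changed direction under any of these alternatives. Between 256 and 259 stayed called in each setting that measured all of them. Most were named for a small p or a large change, a choice that by itself favours calls that stay. Over all genes the calls went from 3651 to 2258 without both Rag1-high arrays. Chl1, Cyp26b1, Il1b and Treml1 are the named genes that lost a call, Cyp26b1 and Il1b also with the replicate block. Array weights raised 35 of the list counts by over 1.5 times and moved 10 more that were 0. Other settings lowered counts by over 1.5 times. Without PBS replicate 3 this held for 26, and with the replicate block for 17. Without both Rag1-high arrays 25 were lowered and 1 moved from 0. Among genes above the median level, where members under it were not counted, 21 were lowered, 2 raised and 2 moved from 0. Rises there were 16 for DNA replication, 11 for matricellular proteins and 5 for acute-phase genes, against 28, 23 and 11. With the shorter E-box CACGTG, 31% of the lysosomal promoters held a match against 28.6% for the longer motif, while the share among all tested genes was 9.37% against 5.24%, so the shorter motif stood less far above its background.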
